A study of Homo sapiens with 60 samples.

Results

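The transcripts of 10 amino acid transporters were followed in the human astrocyte-derived cell line 1321N1 over 24 h of exposure to arsenic, cadmium, or mercury. The 10 genes, SLC7A11, SLC3A2, SLC7A5, SLC6A9, SLC1A4, SLC1A5, SLC7A1, SLC38A1, SLC38A2, and SLC43A1, were taken by name from the 62703 genes of the count table, and all 10 were found once, counted in all 60 libraries, and kept by the filter on low counts. Cells were treated with 2.55 µM sodium metaarsenite, 2.3 µM cadmium chloride, or mercury chloride at 20 µM, each in full medium, or were left non-treated, and were lysed after 1.5, 3, 6, 12, or 24 h. Each of the 20 groups of metal and time held 3 libraries. According to the methods of the study, each metal was used at the concentration that killed the same share of cells in a treatment longer than 24 h. Whether the share was also the same at 1.5 to 24 h was not tested. The concentrations differed between the metals, and a difference between metals refers to these concentrations. All cells came from the same established line, and the labels call the triplicates technical, whereas the methods speak of triplicates only, so that p values may cover only the technical spread.

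The proteins encoded by these genes carry amino acids across the plasma membrane. SLC7A11 (xCT) takes up cystine in exchange for glutamate and so provides the cysteine from which glutathione is made. It works only in a dimer with the glycoprotein SLC3A2 (4F2hc, CD98), which also serves as the heavy chain of SLC7A5 (LAT1), an exchanger of large neutral amino acids. Astrocytes are known for glutathione synthesis, which needs cysteine and glycine, and their glycine transporter GlyT1, which is encoded by SLC6A9, clears glycine around synapses. Several of these genes are known targets of the transcription factor ATF4, which is made when amino acids are scarce or translation is disturbed and which binds C/EBP-ATF elements, and SLC7A11 is also a target of NRF2, which binds antioxidant response elements.

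In the 3′ mRNA sequencing used, reads come from the 3′ end of a transcript, and levels are given here as CPM, the counts relative to the normalized library size, with the SD over 3 libraries. Total counts ranged from 2215276 to 4404609 per library, and the medians of the 4 treatments lay between 3227059 and 3427793. One count corresponded to 0.227 to 0.454 CPM. The cell type label was checked on 11 astrocyte markers. Of these, GFAP, S100B, AQP4, and ALDH1L1, which define mature astrocytes, had at most 3 counts in every library, and the glutamate transporters were at 0 counts in 47 of 60 libraries (SLC1A2) or at a median of 0.840 CPM (SLC1A3). VIM, CD44, SOX9, GJA1, and NES, which other cells also express, were counted in all 60. The summed level of the astrocyte markers, between 3375 and 6363 CPM per library, came mostly from VIM (3014 to 5782 CPM) and so does not check the label. The summed level of 6 neuron markers lay between 14.1 and 31.4 CPM, and those of the microglia, oligodendrocyte, and endothelial cell markers between 0 and 2.21 CPM. Since bulk RNA was measured relative to the total counts, a change in the number of cells and a change in the RNA per cell cannot be told apart.

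In GRCh38, the 10 genes lie on 8 chromosomes. SLC7A11 is at chr4:138164097-138242349 on the minus strand, SLC3A2 at chr11:62856004-62888880 on the plus strand, SLC7A5 at chr16:87830023-87869507 on the minus strand, and SLC6A9 at chr1:43991500-44031467 on the minus strand. SLC1A4 is at chr2:64988477-65023865 on the plus strand, SLC1A5 at chr19:46774883-46788594 on the minus strand, and SLC7A1 at chr13:29509414-29595688 on the minus strand. SLC38A1 (chr12:46183063-46270017) and SLC38A2 (chr12:46358188-46372773) are neighbours on the minus strand of chromosome 12, and SLC43A1 is at chr11:57484534-57515780 on the minus strand. The last 400 exonic bases, from which most reads of this assay are drawn, lay entirely in the 3′ UTR for 9 genes and to 42.5% for SLC3A2. None of these stretches overlapped an exon of another gene on the same strand or shared a run of 50 bases with another gene.

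Of the genes, 9, all but SLC7A11, had an entry in the RefSeq promoter table (GRCh38.p14), with 16 windows of 300 bases around their transcription starts. The C/EBP-ATF element was searched as TGATGNAA on both strands, and 5 of the 16 windows held it, against 3.62% of the 35116 windows of all genes. The core of the antioxidant response element was searched as TGACNNNGC on both strands, and 4 of the 16 windows held it, against 13.35% of all windows. The matches are shown because they are the sequences of these promoters that match the elements bound by ATF4 and NRF2. Each run has 30 bases, is written 5′ to 3′ on the strand of the gene, and has the match in capitals, which read as the reverse complement where the match is on the other strand. The 5 matches to the C/EBP-ATF element were the following.
SLC1A4 (chr2:64989381-64989410, plus strand): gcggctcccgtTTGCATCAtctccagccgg
SLC3A2 (chr11:62881719-62881748, plus strand): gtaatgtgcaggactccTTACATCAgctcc
SLC38A1 (chr12:46266502-46266531, minus strand): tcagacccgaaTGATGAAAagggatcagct
SLC7A1 (chr13:29595663-29595692, minus strand): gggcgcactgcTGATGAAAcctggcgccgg
SLC1A5 (chr19:46784893-46784922, minus strand): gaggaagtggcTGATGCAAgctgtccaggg

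The 4 matches to the core of the antioxidant response element lay in the windows of SLC3A2, SLC7A5, SLC7A1, and SLC1A5. In SLC3A2 and SLC7A1, both elements were found in the same window, and they did not overlap.
SLC3A2 (chr11:62881652-62881681, plus strand): cgagggtgggTGACTCAGCgtcctccttcc
SLC7A5 (chr16:87869490-87869519, minus strand): gcggggttccTGACGCAGCtgcgggcggcg
SLC7A1 (chr13:29595754-29595783, minus strand): tgcccggcggTGACGCGGCcgagcgggccg
SLC1A5 (chr19:46787385-46787414, minus strand): cctggatcttGCGAGGTCAgctcccgctcc
A match is a description of the letters only, and windows without a match, such as those of SLC6A9, SLC38A2, and SLC43A1, say nothing about binding elsewhere.

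Over the whole time course, all 10 transporter transcripts passed the test for an increase at 1 or more time points under arsenic and under mercury. Of the 10, 7 did so under cadmium, and none passed in the direction of a decrease. Under arsenic, SLC7A1 passed only at 12 h, and not in several alternative fits or without single libraries. The exceptions under cadmium were SLC6A9, SLC1A5, and SLC43A1. Each metal gave 50 tests (10 genes at 5 time points) of the log2 fold change (LFC) against non-treated cells lysed at the same time, by edgeR's quasi-likelihood test with Benjamini-Hochberg adjustment over 12341 genes at an adjusted p under 0.05. Of the 50, 35 passed under mercury, 23 under arsenic, and 12 under cadmium, or 70%, 46%, and 24%. Over the same 5 time points, 10.7%, 3.9%, and 2.52% of the tests of all genes passed, so that the metals had the same order over all genes. The 10 were chosen with earlier results of these data known, so their higher shares are no independent result. The earliest to pass were SLC7A11 and SLC38A2, under mercury at 1.5 h.

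**Figure D1:**
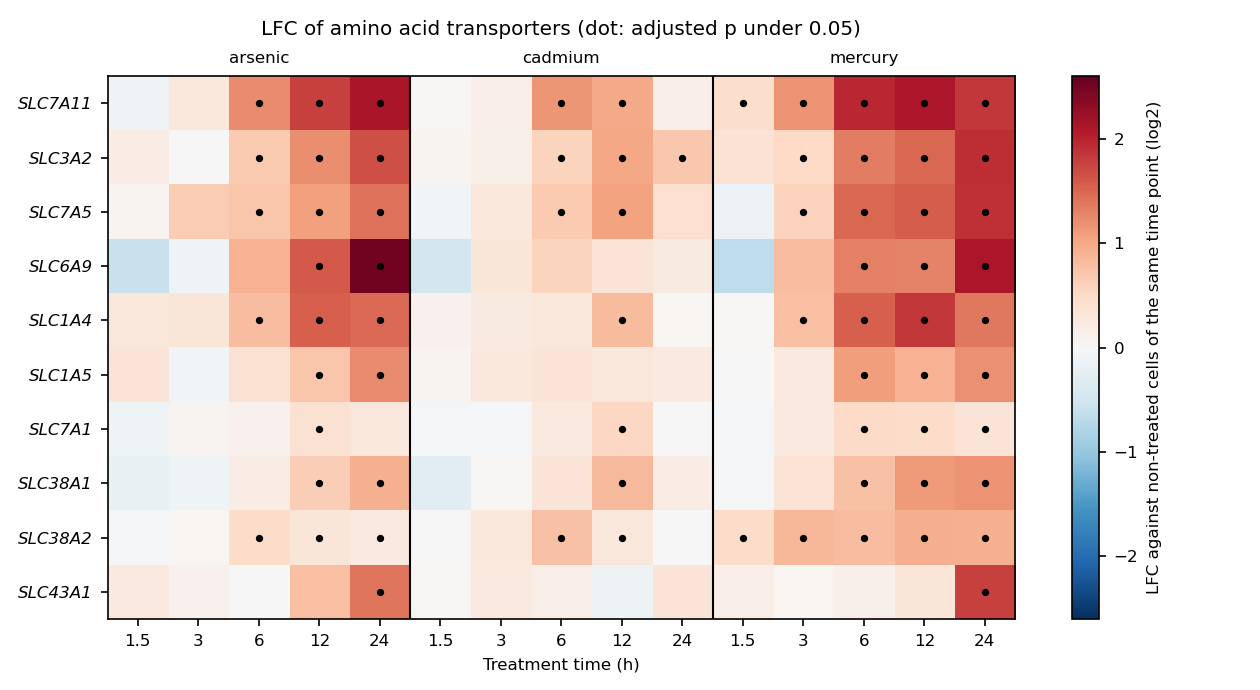
Map of the log2 fold change (LFC) of the 10 transporters (rows) against non-treated cells lysed at the same time, for arsenic, cadmium, and mercury at 1.5 to 24 h (columns). A black dot marks an adjusted p under 0.05 (3 libraries against 3). The dots number 23 for arsenic, 12 for cadmium, and 35 for mercury, and all stand on LFCs above 0.

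Under mercury, 2 of the 10 transporters passed at 1.5 h, where 0.567% of all tested genes did. The number grew to 5 by 3 h (1.55% of all genes), to 9 by 6 h (7.48%), where it remained by 12 h (16%), and to 10 by 24 h (27.8%). The median LFC of the 10 was 0.01 at 1.5 h, 0.56 at 3 h, 1.20 at both 6 and 12 h, and 1.57 at 24 h, whereas the median over all genes stayed between -0.02 and 0.00. Under arsenic, none passed at 1.5 h (0.0729% of all genes) or 3 h (0.138%), with 1 and 2 of the 10 at an unadjusted p under 0.05 and 0 and 1 called by DESeq2. Arsenic then gave 5 at 6 h (0.916%), 9 at 12 h (4.11%), and 9 at 24 h (14.3%), with median LFCs of 0.58, 0.93, and 1.40. Cadmium gave none at 1.5 h (0%) and 3 h (0.203%), with 1 gene each at an unadjusted p under 0.05 and 0 called by DESeq2. It then gave 4 at 6 h (2.05%), 7 at 12 h (8.18%), and 1 at 24 h (2.19%), with median LFCs of 0.46, 0.68, and 0.21. As a description without a test, the largest LFC of a gene, called or not, fell at 24 h for 7 of 10 genes under arsenic and 6 of 10 under mercury, and at 6 or 12 h for 9 of 10 under cadmium.

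**Figure D2:**
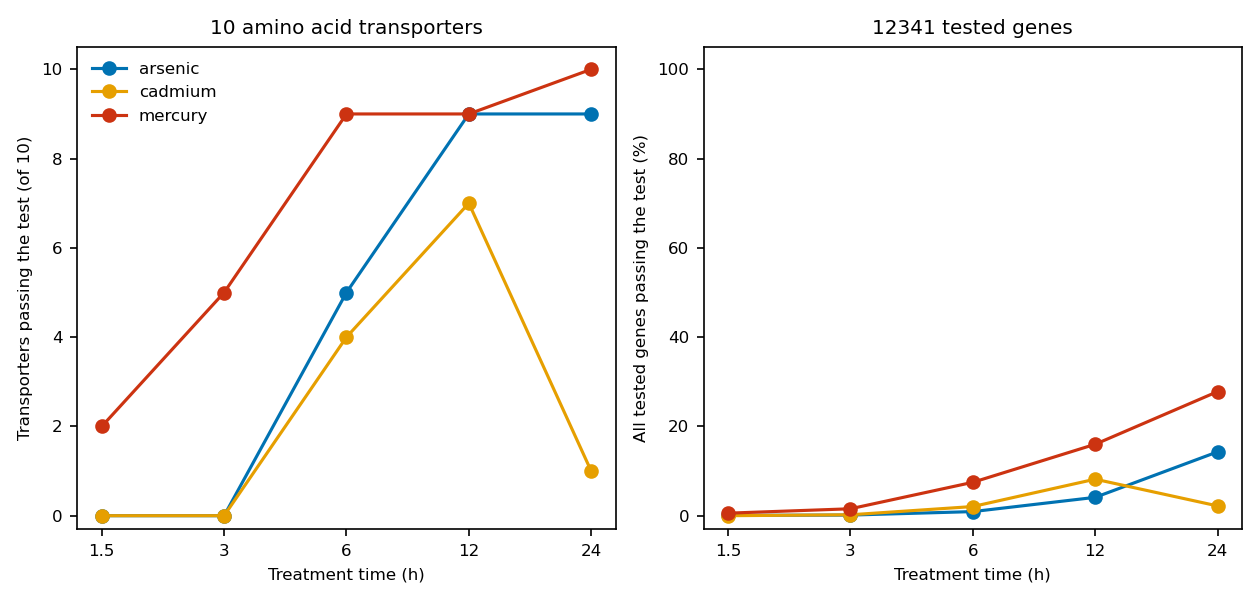
Number of the 10 transporters with an adjusted p under 0.05 (left) and percentage of all 12341 tested genes with an adjusted p under 0.05 (right) against treatment time (h, evenly spaced categories) for the 3 metals. The transporters reach 9 of 10 at 6 h under mercury and at 12 h under arsenic and fall from 7 to 1 between 12 and 24 h under cadmium, while the percentage of all genes reaches 27.8%, 14.3%, and 8.18% at its highest.

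SLC7A11, the cystine and glutamate exchanger, passed the test under mercury at all 5 time points. At 1.5 h of mercury, its libraries read 141, 145, and 127 CPM, against 90.5, 108, and 103 CPM in non-treated cells. All mercury libraries lay above all non-treated ones, and the LFC was 0.46 (SE 0.12, adjusted p = 0.0354). The call was lost without mercury library 1 or 2 or without any of the 3 non-treated libraries, with adjusted p values of 0.0599 to 0.431. At the same time point, arsenic (89.6, 77.7, and 112 CPM) and cadmium (117, 95.7, and 94.9 CPM) overlapped with the non-treated libraries.

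At 3 h, SLC7A11 read 212, 217, and 230.4 CPM under mercury and 91.8, 94.0, and 106 CPM in non-treated cells, an LFC of 1.17 (SE 0.11, adjusted p = 1.38e-12). The mercury libraries were thus well apart, whereas the levels under arsenic (118 ± 13.5 CPM) and cadmium (109.9 ± 7.19 CPM) overlapped with the non-treated 97.3 ± 7.72 CPM, and neither passed. At 6 h, all 3 metals raised it. The libraries at 6 h read 367, 273, and 262 CPM under arsenic, 318, 239.6, and 284 CPM under cadmium, and 490.2, 467, and 527 CPM under mercury, against 139.6, 124, and 120.1 CPM in non-treated cells. The corresponding LFCs were 1.23 (SE 0.11, adjusted p = 2.56e-13), 1.14 (SE 0.11, adjusted p = 3.25e-12), and 1.95 (SE 0.11, adjusted p = 4.82e-23), and no treated library overlapped with a non-treated one.

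At 12 h, the SLC7A11 level was 488 ± 30.7 CPM under arsenic, 284 ± 29.6 CPM under cadmium, and 619 ± 39.7 CPM under mercury, against 143 ± 8.56 CPM in non-treated cells. The LFCs were 1.77 (SE 0.11, adjusted p = 6.84e-21) for arsenic, 0.99 (SE 0.11, adjusted p = 1.64e-10) for cadmium, and 2.11 (SE 0.11, adjusted p = 2.68e-25) for mercury. By 24 h the courses had parted. Arsenic libraries read 607, 642, and 678 CPM and mercury libraries 538, 547, and 492 CPM, whereas cadmium libraries had returned to 171, 165, and 163 CPM, next to 161, 141, and 138 CPM in non-treated cells. The cadmium libraries still lay above all non-treated libraries of that time, but the LFC of 0.18 (SE 0.11, adjusted p = 0.541) did not pass. Over all 20 groups, the highest mean levels were those of arsenic at 24 h and mercury at 12 h, whose libraries overlapped, and the lowest was that of arsenic at 1.5 h (93.2 ± 17.6 CPM), which overlapped with the non-treated groups at 1.5 and 3 h.

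**Figure D3:**
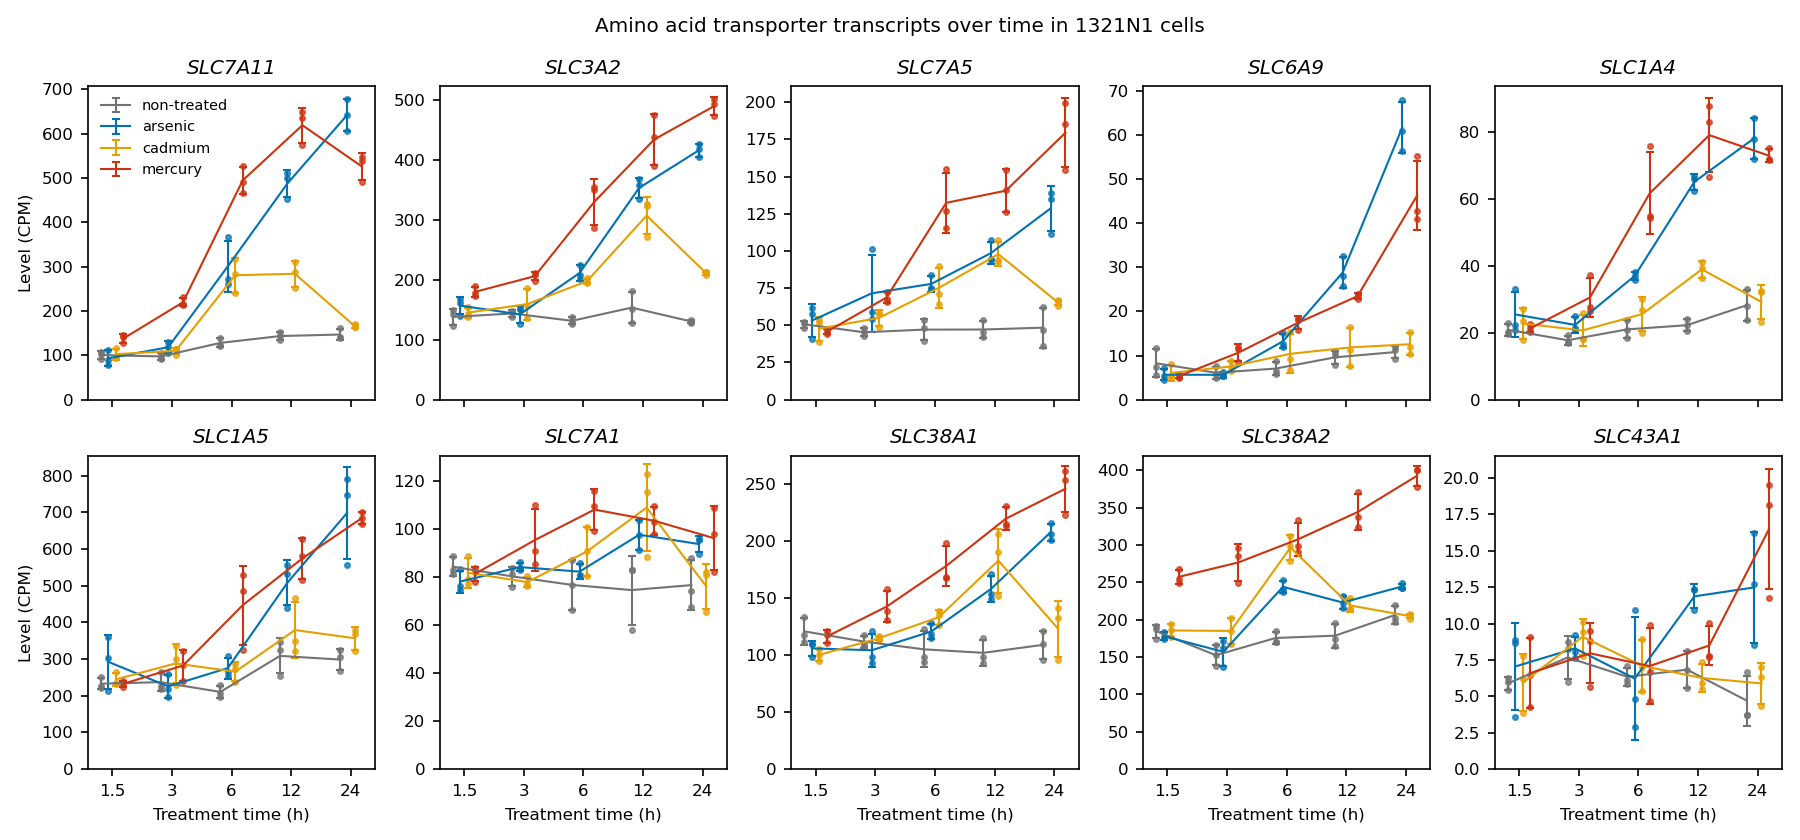
Level (CPM, linear axis from 0) of each transporter against treatment time (h, evenly spaced categories) in non-treated, arsenic, cadmium, and mercury cells. Points are single libraries, and lines with bars give the mean ± SD of 3 libraries. SLC7A11 climbs to 642 CPM under arsenic at 24 h and falls back to 166 CPM under cadmium, SLC38A2 under mercury is already at 257 CPM at 1.5 h, and SLC7A1 stays within a narrow range.

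SLC3A2, the heavy chain that xCT and LAT1 share, was the only transporter that passed under cadmium at 24 h. At 1.5 h of mercury, it read 172, 178, and 189 CPM against 123, 142, and 148 CPM in non-treated cells. The libraries did not overlap, but the LFC of 0.39 (SE 0.10, adjusted p = 0.0559) missed the threshold. It passed in DESeq2 (adjusted p = 0.0349), with the stricter filter (0.0497), and with only the libraries compared (0.0127), and whether SLC3A2 and SLC7A11 differed at this time was not tested. It passed at 3 h under mercury, with an LFC of 0.52 (SE 0.10, adjusted p = 0.000442), while arsenic (-0.01) and cadmium (0.15) did not pass at that time. At 6 h the LFC was 0.69 (SE 0.10, adjusted p = 3.32e-06) under arsenic, 0.59 (SE 0.10, adjusted p = 6.61e-05) under cadmium, and 1.33 (SE 0.10, adjusted p = 5.74e-17) under mercury. Levels at 12 h were 353 ± 17.0, 307 ± 31.5, and 433 ± 42.4 CPM under arsenic, cadmium, and mercury, against 153 ± 26.4 CPM, all without overlap. At 24 h, arsenic libraries read 425, 418, and 403 CPM, mercury libraries 472, 493, and 501 CPM, cadmium libraries 212, 212, and 207 CPM, and non-treated libraries 129, 133, and 128 CPM. The groups were ordered mercury, arsenic, cadmium, non-treated without any overlap, with LFCs of 1.91 (SE 0.10, adjusted p = 3.63e-25), 1.68 (SE 0.10, adjusted p = 6.37e-22), and 0.69 (SE 0.10, adjusted p = 9.5e-07). Compared directly at 24 h, arsenic and mercury differed by -0.23 (adjusted p = 0.101), which did not pass. It passed with only the libraries compared (adjusted p = 0.0466).

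SLC7A5, the large neutral amino acid exchanger, passed under mercury from 3 h and under arsenic from 6 h. Under arsenic at 3 h, 1 of its libraries stood out, at 58.7, 54.2, and 101 CPM against 45.3, 47.9, and 42.6 CPM in non-treated cells. The LFC of 0.67 (SE 0.17, adjusted p = 0.069) did not pass, and it was 0.81 (adjusted p = 0.0151) without arsenic library 2 and 0.79 (adjusted p = 0.0302) without arsenic library 1, both times with the high library kept. Without the high library, arsenic library 3, the LFC was 0.32. Mercury at the same time gave closer libraries, 65.6, 67.7, and 72.6 CPM, and an LFC of 0.60 (SE 0.16, adjusted p = 0.0373). This call was lost on leaving out any of the 6 libraries, with adjusted p values of 0.0732 to 0.209, and with the replicate block (0.0557). At 6 h, arsenic, cadmium, and mercury gave LFCs of 0.73 (SE 0.17, adjusted p = 0.00771), 0.68 (SE 0.17, adjusted p = 0.012), and 1.49 (SE 0.16, adjusted p = 5.37e-11). The call for arsenic was lost without arsenic library 1 (adjusted p = 0.0693) and both it and that for cadmium without non-treated library 2 (adjusted p = 0.111 and 0.108), and the call for cadmium also without cadmium library 3 (adjusted p = 0.157). At 12 h, arsenic (98.5 ± 7.65 CPM) and cadmium (97.8 ± 8.06 CPM) had similar means, above 47.1 ± 6.02 CPM in non-treated cells and below 140.5 ± 14.3 CPM under mercury. At 24 h the order was mercury (154, 199, and 185 CPM), arsenic (135, 139, and 111 CPM), cadmium (63.2, 65.9, and 66.8 CPM), and non-treated (46.9, 62.4, and 35.8 CPM). Cadmium did not pass at that time, with an LFC of 0.44 (SE 0.16, adjusted p = 0.183), and it passed at an LFC of 0.66 (adjusted p = 0.0437) without the highest non-treated library, number 2.

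SLC6A9, which encodes the glycine transporter GlyT1, had few counts, from 12 to 235 per library, and the largest LFC of all 10 transporters. At 1.5 h its level was 8.23 ± 3.20 CPM in non-treated cells and between 5.30 and 6.05 CPM on average under the metals, with overlapping libraries and LFCs of -0.57, -0.47, and -0.66 that did not pass. Under mercury it passed from 6 h, with libraries at 18.0, 18.6, and 15.7 CPM against 6.53, 8.77, and 5.78 CPM and an LFC of 1.31 (SE 0.26, adjusted p = 0.000224). Arsenic at 6 h gave 12.6, 12.0, and 15.1 CPM, all above the non-treated libraries, but the LFC of 0.91 (SE 0.27, adjusted p = 0.0842) did not pass. At 12 h, arsenic libraries read 28.0, 25.9, and 32.6 CPM and mercury libraries 23.7, 24.0, and 22.7 CPM, against 7.83, 10.2, and 10.7 CPM. The LFCs were 1.59 (SE 0.23, adjusted p = 6e-07) and 1.29 (SE 0.24, adjusted p = 3.28e-05). At 24 h, arsenic libraries reached 60.9, 68.0, and 56.5 CPM and mercury libraries 55.4, 42.8, and 41.0 CPM, against 11.8, 9.22, and 11.3 CPM, with LFCs of 2.51 (SE 0.22, adjusted p = 2.1e-14) and 2.10 (SE 0.22, adjusted p = 1.03e-11). Cadmium never passed for this gene, and its libraries overlapped with the non-treated ones at all 5 time points, with the highest LFC at 6 h (0.57 (95% interval 0.01 to 1.13, adjusted p = 0.369)).

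SLC1A4 and SLC1A5 encode ASCT1 and ASCT2, sodium-dependent exchangers of neutral amino acids, of which ASCT1 carries serine and ASCT2 is a main route of glutamine. SLC1A4 passed under mercury from 3 h, at 27.7, 26.6, and 37.3 CPM against 19.3, 16.8, and 17.1 CPM. The mercury libraries lay above the non-treated ones, and the LFC was 0.78 (SE 0.18, adjusted p = 0.00662). This call was lost without mercury library 3 (adjusted p = 0.174), which was the highest, or without non-treated library 2 or 3 (0.0542 and 0.0546). Arsenic raised SLC1A4 from 6 h, by an LFC of 0.81 (SE 0.18, adjusted p = 0.00527), a call lost without non-treated library 1 (adjusted p = 0.0664). Cadmium passed only at 12 h, at 36.3, 41.2, and 39.3 CPM against 24.1, 22.2, and 20.4 CPM and an LFC of 0.81 (SE 0.18, adjusted p = 0.0009). Arsenic at 12 h was far higher, at 67.0, 62.4, and 66.0 CPM, and mercury at 66.7, 82.9, and 87.7 CPM. At 24 h, the levels were 78.1 ± 6.12 CPM under arsenic, 72.9 ± 1.98 CPM under mercury, 29.2 ± 5.20 CPM under cadmium, and 28.2 ± 4.66 CPM in non-treated cells. Arsenic and mercury overlapped with each other and not with the other groups, while cadmium overlapped with non-treated cells.

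SLC1A5 passed under mercury from 6 h and under arsenic from 12 h. The libraries of arsenic at 6 h (308, 266, and 253 CPM) and cadmium at 6 h (237, 272, and 288 CPM) lay above the non-treated libraries (228, 206, and 197 CPM), but LFCs of 0.39 (SE 0.15, adjusted p = 0.307) and 0.34 (SE 0.15, adjusted p = 0.298) did not pass. For arsenic, the LFC was 0.40 and passed with only the libraries compared (adjusted p = 0.00865) and without the filter on low counts (0.0185). Mercury passed at 6 h, with libraries spread over 486, 530.0, and 325 CPM and an LFC of 1.09 (SE 0.15, adjusted p = 5.84e-08). At 12 h, the LFC was 0.72 (SE 0.14, adjusted p = 0.000378) under arsenic, 0.90 (SE 0.14, adjusted p = 1.84e-06) under mercury, and 0.29 (SE 0.14, adjusted p = 0.227) under cadmium, whose libraries overlapped with the non-treated ones. At 24 h, SLC1A5 libraries read 791, 748, and 556 CPM under arsenic, 684, 669, and 701 CPM under mercury, 380.2, 322, and 368 CPM under cadmium, and 324, 305, and 267 CPM without treatment. Arsenic library 3 was the lowest of its group and still above all cadmium and non-treated libraries. Cadmium did not pass for this gene at any time, with an LFC of 0.26 (95% interval -0.03 to 0.54, adjusted p = 0.477) at 24 h.

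SLC38A2 and SLC38A1 encode SNAT2 and SNAT1, sodium-coupled carriers of small neutral amino acids such as glutamine and alanine. SLC38A2 passed under mercury at all 5 time points. At 1.5 h, mercury libraries read 267, 249, and 255 CPM against 188, 191, and 175 CPM, and arsenic and cadmium libraries stayed at 177, 174, and 183 and 177, 186, and 194 CPM. All mercury libraries lay above the other 9, and the LFC was 0.48 (SE 0.09, adjusted p = 0.000233). It was 0.86 (SE 0.09, adjusted p = 6.68e-12) at 3 h and ranged between 0.81 and 0.95 under mercury from 3 to 24 h. Under cadmium the transcript passed first at 6 h, at 279, 299, and 312 CPM against 185, 171, and 170.5 CPM, an LFC of 0.76 (SE 0.09, adjusted p = 8.04e-10). It was lower at 12 h (229, 214, and 215 CPM, LFC 0.29 (SE 0.09, adjusted p = 0.0219)) and at 24 h (205, 208, and 202 CPM) overlapped with non-treated cells. Arsenic also had its largest LFC at 6 h (0.48 (SE 0.09, adjusted p = 0.000233)), followed by 0.32 (SE 0.09, adjusted p = 0.0149) and 0.25 (SE 0.08, adjusted p = 0.039). The arsenic call at 12 h was lost without arsenic library 2 or non-treated library 1 or 2 (adjusted p = 0.0764 to 0.146), that at 24 h without any arsenic library or non-treated library 1 or 2 (0.0761 to 0.149), and the cadmium call at 12 h without cadmium library 1 or 3 or non-treated library 1 or 2 (0.0542 to 0.116). All of these calls were also lost without the filter and with only the libraries compared (adjusted p = 0.0550 to 0.226). The arsenic call at 24 h was lost with the replicate block as well (0.0527).

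For SLC38A1, no metal passed at 1.5, 3, or, for arsenic and cadmium, 6 h, and at 6 h of mercury the libraries read 168, 168, and 198 CPM against 93.9, 123, and 97.9 CPM, with an LFC of 0.76 (SE 0.11, adjusted p = 8.01e-07). Cadmium at 6 h gave an LFC of 0.34 (SE 0.12, adjusted p = 0.125), which passed without the highest non-treated library, number 2 (LFC 0.48, adjusted p = 0.0371). At 12 h, it passed under all metals, with 149, 153, and 171 CPM under arsenic, 152, 191, and 206 CPM under cadmium, and 213, 231, and 214 CPM under mercury, against 98.4, 115, and 92.7 CPM. The LFCs were 0.63 (SE 0.11, adjusted p = 5.56e-05), 0.85 (SE 0.11, adjusted p = 4.86e-08), and 1.11 (SE 0.11, adjusted p = 3.09e-12). At 24 h, arsenic (201, 216, and 206 CPM) and mercury (223, 254, and 261 CPM) were higher still, while cadmium libraries (141, 133, and 95.2 CPM) overlapped with the non-treated ones (110.0, 95.9, and 121 CPM).

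SLC7A1, the cationic amino acid transporter CAT1 for arginine and lysine, had the smallest highest LFC of the 10 over all metals together. It was 0.54 (SE 0.12, adjusted p = 0.00156) under cadmium at 12 h, whereas under cadmium alone the highest LFCs of SLC1A5 (0.34) and SLC43A1 (0.33) were below it and did not pass. The libraries stood at 123, 88.3, and 115 CPM against 57.9, 82.8, and 82.8 CPM. Non-treated library 1 was the lowest of these, and without it the LFC was 0.39 and the call was lost (adjusted p = 0.0661). Arsenic passed at 12 h only, with an LFC of 0.39 (SE 0.12, adjusted p = 0.0488), and this call was lost without any of the arsenic libraries or without non-treated library 1, for which the LFC was 0.24 (adjusted p = 0.0689 to 0.445 over the 4). The arsenic call was also lost with RLE size factors (adjusted p = 0.0517), the replicate block (0.0552), no filter (0.114), and only the libraries compared (0.121). At 24 h, the arsenic LFC of 0.29 (SE 0.12, adjusted p = 0.104) did not pass, and it did without non-treated library 1 (LFC 0.40, adjusted p = 0.0482). Under mercury it passed with LFCs of 0.50 (SE 0.12, adjusted p = 0.00364) at 6 h and 0.47 (SE 0.12, adjusted p = 0.00359) at 12 h, and of 0.33 (SE 0.12, adjusted p = 0.0357) after 24 h, where mercury (97.9, 108, and 81.9 CPM) and non-treated libraries (87.8, 67.6, and 74.2 CPM) overlapped. The mercury call was lost at 6 h without non-treated library 3 (adjusted p = 0.0645), at 12 h without non-treated library 1 (0.0965), and at 24 h without mercury library 1 or 2 or non-treated library 2 or 3 (0.0792 to 0.213). The mercury call at 24 h was also lost without the filter (adjusted p = 0.0814) and with only the libraries compared (0.0649).

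SLC43A1, which encodes LAT3, a facilitative carrier of branched-chain amino acids, passed at 24 h only. It had between 10 and 62 counts per library, and its SEs, between 0.33 and 0.37 on the log2 scale against non-treated cells, were the widest of the 10. Up to 12 h no metal passed, although all arsenic libraries at 12 h (12.3, 10.9, and 12.4 CPM) lay above the non-treated ones (5.59, 6.79, and 8.12 CPM) at an LFC of 0.79 (SE 0.33, adjusted p = 0.197). At 24 h, arsenic libraries read 12.7, 16.2, and 8.54 CPM and mercury libraries 19.5, 11.8, and 18.2 CPM, against 6.70, 3.69, and 3.75 CPM. Both groups lay above non-treated cells, with LFCs of 1.38 (SE 0.35, adjusted p = 0.00291) and 1.78 (SE 0.34, adjusted p = 3.02e-05). Cadmium libraries overlapped with non-treated ones throughout, at 7.05, 6.30, and 4.31 CPM at 24 h.

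To test whether the metals differed, their libraries were compared directly at each time point, without the non-treated cells. At 1.5 h, 2 of the 10 transporters were lower under arsenic than under mercury (1.56% of all genes passed), namely SLC7A11 at -0.56 (SE 0.11, adjusted p = 0.00191) and SLC38A2 at -0.53 (SE 0.09, adjusted p = 2.06e-05). The SLC7A11 difference was lost without arsenic library 2 (adjusted p = 0.0934). Between cadmium and mercury, 1 was lower under cadmium (0.656% of all genes), SLC38A2 at -0.47 (SE 0.08, adjusted p = 0.000267), whereas SLC7A11 at -0.43 (SE 0.11, adjusted p = 0.0501) just missed the threshold and passed with DESeq2 (adjusted p = 0.0230). Between arsenic and cadmium, no transporter passed at 1.5 h (0% of all genes) or 3 h (0.138%), with 0 and 3 at an unadjusted p under 0.05 and 0 by DESeq2.

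At 3 h, 4 transporters were lower under arsenic than under mercury (1.89% of all genes), SLC7A11 at -0.90 (SE 0.11, adjusted p = 2.12e-08), SLC3A2 at -0.53, SLC38A1 at -0.46, and SLC38A2 at -0.82. Between cadmium and mercury, 3 were lower under cadmium (1.78%), SLC7A11 (95% interval -1.22 to -0.78, adjusted p = 9.62e-10), SLC38A2 at -0.58, and SLC3A2 at -0.37. The SLC38A1 difference was lost without arsenic library 1 or 3 or mercury library 2 (adjusted p = 0.124 to 0.188), and the SLC3A2 difference between cadmium and mercury without cadmium library 1 or 3 or any mercury library (0.0544 to 0.217). With only the libraries compared, both were lost too (adjusted p = 0.0822 for SLC38A1 and 0.0967 for SLC3A2). The SLC3A2 difference between cadmium and mercury was also lost without the filter (0.0704) and with the replicate block (0.0519).

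At 6 h, none of the 10 passed between arsenic and cadmium (1.18% of all genes passed). At an unadjusted p under 0.05 there were 2, and DESeq2 called SLC38A2 (adjusted p = 0.0392). For SLC7A11 the difference was 0.10 with a 95% interval of -0.11 to 0.31, and for SLC3A2 0.10 (-0.10 to 0.30). SLC38A2 was at -0.28 (95% interval -0.45 to -0.11, adjusted p = 0.09), and SLC1A4 stood at 0.55 (95% interval 0.20 to 0.89, adjusted p = 0.135). Mercury was above both. In the comparison of arsenic with mercury, 8 transporters were lower under arsenic (4.48%), all but SLC6A9 and SLC43A1, with differences from -0.76 for SLC7A5 to -0.33 for SLC38A2. In that of cadmium with mercury, 6 were lower under cadmium (3.78%), led by SLC1A4 at -1.28 (SE 0.17, adjusted p = 1.02e-07), whereas SLC38A2 stood at nearly the same level under both, -0.05 (95% interval -0.22 to 0.11, adjusted p = 0.821). Of the 8, those of SLC1A4 (without mercury library 2, adjusted p = 0.0565), SLC38A2 (without arsenic library 3 or mercury library 3, 0.0515 and 0.0596), and SLC7A1 (without any arsenic library or mercury library 2 or 3, 0.0663 to 0.181) were lost. Of the 6, that of SLC38A1 was lost without cadmium library 3 or mercury library 3 (0.0852 and 0.0960). With only the libraries compared, the differences from mercury of SLC7A1 and SLC38A2 under arsenic (adjusted p = 0.0681 and 0.0647) and of SLC38A1 under cadmium (0.0653) were also lost. That of SLC7A1 was lost without the filter as well (0.0670).

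Between arsenic and cadmium at 12 h, 3 transporters were higher under arsenic (5.77% of all genes passed), SLC7A11 at 0.78 (SE 0.11, adjusted p = 8.02e-08), SLC6A9 at 1.25 (SE 0.23, adjusted p = 9.72e-05), and SLC1A4 at 0.74 (SE 0.16, adjusted p = 0.00129). For SLC7A5 and SLC38A2, the differences of 0.02 (95% interval -0.29 to 0.32, adjusted p = 0.972) and 0.03 (95% interval -0.14 to 0.20, adjusted p = 0.91) lay around 0. For SLC1A5, the difference of 0.43 (SE 0.14, adjusted p = 0.0598) passed without arsenic library 3 (0.53, adjusted p = 0.0285) or cadmium library 1 (0.61, adjusted p = 0.0121). This SLC1A5 difference also passed without the filter on low counts (adjusted p = 0.000717) and with only the libraries compared (0.0145). Against mercury, 5 were lower under arsenic (6.84%), SLC7A11, SLC3A2, SLC7A5, SLC38A1, and SLC38A2, with differences from -0.63 to -0.30, and 7 were lower under cadmium (3.29%), with the largest for SLC7A11 at -1.13 (SE 0.11, adjusted p = 1.16e-12). SLC7A1 was at a similar level under cadmium and mercury, with a difference of 0.07 (95% interval -0.17 to 0.31, adjusted p = 0.877).

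Several of these 12 h differences were lost without single libraries. Those between arsenic and mercury ended for SLC7A11 without arsenic library 1 or mercury library 2 or 3 (adjusted p = 0.0859 to 0.169), for SLC3A2 without any arsenic library or mercury library 2 or 3 (0.0701 to 0.241), and for SLC7A5 without arsenic library 1 or 2 or mercury library 2 or 3 (0.0708 to 0.115). Those between cadmium and mercury were lost for SLC7A5 without cadmium or mercury library 2 or 3 (0.104 to 0.170), for SLC6A9 without cadmium library 1 or 3 (0.119 and 0.0618), and for SLC1A5 without cadmium library 2 or 3 or mercury library 3 (0.0523 to 0.0940). The SLC3A2 difference between arsenic and mercury was also lost without the filter (adjusted p = 0.107) and with the replicate block (0.0620).

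At 24 h, 9 transporters were higher under arsenic than under cadmium (10.2% of all genes passed), all but SLC7A1, whose difference was 0.30 (95% interval 0.05 to 0.54, adjusted p = 0.114). The largest were those of SLC6A9 (2.28 (SE 0.22, adjusted p = 6.74e-13)), SLC7A11 (1.95 (SE 0.11, adjusted p = 1.27e-23)), and SLC1A4 (1.42 (SE 0.16, adjusted p = 2.63e-10)). All 10 were lower under cadmium than under mercury (20%), from -1.86 for SLC6A9 to -0.33 for SLC7A1. Between arsenic and mercury, 2 of the 10 were lower under arsenic (11.4%), SLC7A5 at -0.48 (SE 0.15, adjusted p = 0.0202) and SLC38A2 at -0.68 (SE 0.08, adjusted p = 2.98e-09). At an unadjusted p under 0.05 there were 6, against 5 at 12 h, and whether the differences changed between the times was not tested. For SLC7A11 the difference was 0.29 (95% interval 0.08 to 0.49, adjusted p = 0.0547), and it passed with the stricter filter (adjusted p = 0.0489) and with only the libraries compared (0.00992). For SLC1A4, SLC1A5, and SLC7A1, differences of 0.10 (95% interval -0.20 to 0.40, adjusted p = 0.753), 0.03 (95% interval -0.25 to 0.31, adjusted p = 0.935), and -0.04 (95% interval -0.28 to 0.20, adjusted p = 0.894) were the smallest. The differences lost without single libraries were those between arsenic and cadmium of SLC38A2 (any of the 6, adjusted p = 0.0650 to 0.128) and SLC43A1 (arsenic library 1 or 2 or cadmium library 2 or 3, 0.0592 to 0.203), that between cadmium and mercury of SLC7A1 (cadmium library 3 or mercury library 1 or 2, 0.104 to 0.236), and that between arsenic and mercury of SLC7A5 (arsenic library 3 or mercury library 2 or 3, 0.0650 to 0.117). Without the filter and with only the libraries compared, the same differences of SLC38A2 (adjusted p = 0.233 and 0.174), SLC43A1 (0.0618 and 0.0881), and SLC7A1 (0.0947 and 0.113) were also lost. That of SLC38A2 was lost with the replicate block as well (0.0564).

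**Figure D4:**
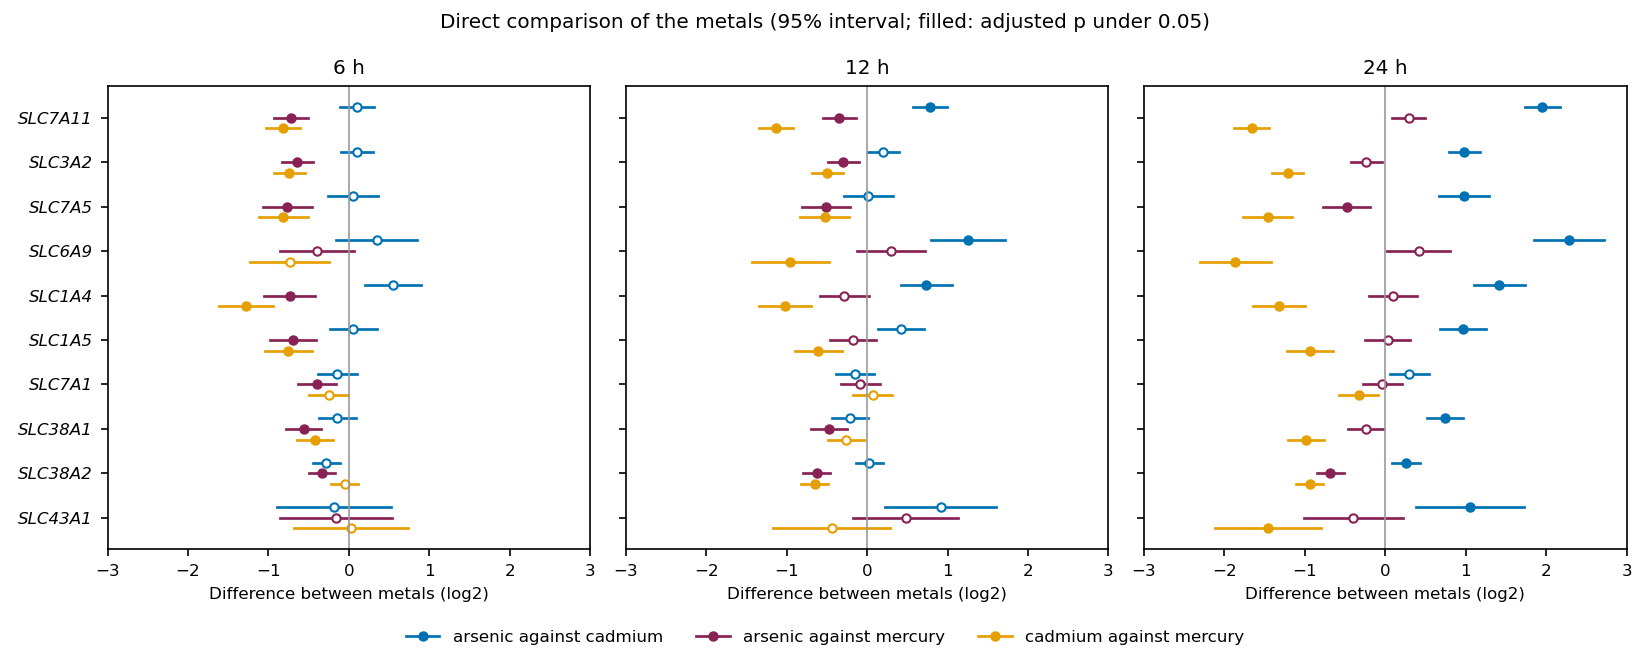
Difference between metals (log2, first metal minus second) for the 10 transporters at 6, 12, and 24 h, as points with 95% intervals. Filled points have an adjusted p under 0.05. Arsenic against cadmium has 0 filled points at 6 h, 3 at 12 h, and 9 at 24 h, cadmium against mercury has 6, 7, and 10, and arsenic against mercury has 8, 5, and 2.

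Whether a metal's effect changed between 12 and 24 h was tested as an interaction, the LFC at 24 h minus that at 12 h. Under cadmium, the effect was smaller at 24 h for 2 of the 10 transporters (0.381% of all genes passed), SLC7A11 with a change of -0.81 (SE 0.16, adjusted p = 0.0044) and SLC38A1 with -0.66 (SE 0.16, adjusted p = 0.0354). Point estimates were below 0 for 9 of the 10, among them SLC1A4 at -0.77, SLC7A5 at -0.62, and SLC7A1 at -0.55, which did not pass. The SLC7A11 change passed in all 12 fits that left out 1 library. That of SLC38A1 passed in 5 of the 12 and was lost without cadmium library 2 or 3 of 12 h, cadmium library 3 of 24 h, or non-treated library 1 or 3 of either time (adjusted p = 0.0825 to 0.203), and it was also lost with the replicate block (0.0562) and with only the libraries compared (0.326). Under arsenic, the change passed for none (1.57% of all genes), with 4 of 10 at an unadjusted p under 0.05 and SLC3A2, at 0.47 (SE 0.14, adjusted p = 0.0589), called by DESeq2 (adjusted p = 0.0390). The SLC3A2 change also passed without non-treated library 3 of 12 h, at 0.59 (adjusted p = 0.0146), and with the stricter filter (0.0456). For SLC1A5, the arsenic change of 0.50 (adjusted p = 0.216) passed without the filter (0.0361). Under mercury the change passed for none as well (0.624% of all genes), with 4 at an unadjusted p under 0.05 and 0 called by DESeq2.

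The comparison of the cadmium effect at 12 h with that at 6 h was added after the values were seen, because the largest cadmium LFC of SLC38A2 was at 6 h. None of the 10 passed in edgeR (0.324% of all genes did), 4 had an unadjusted p under 0.05, and DESeq2 called SLC38A2 (adjusted p = 0.0204). The change was -0.47 (SE 0.12, adjusted p = 0.0701) for SLC38A2, while it was above 0 for SLC38A1 (0.51), SLC1A4 (0.55), and SLC3A2 (0.42), for which it did not pass.

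In cells without treatment, SLC7A11 was the only transporter that passed between time points, with libraries at 90.5, 108, and 103 CPM at 1.5 h, 135, 152, and 144 CPM at 12 h, and 161, 141, and 138 CPM at 24 h. The later libraries lay above the early ones, with LFCs against 1.5 h of 0.51 (SE 0.12, adjusted p = 0.00389) at 12 h (4.09% of all genes passed) and 0.55 (SE 0.12, adjusted p = 0.00179) at 24 h (3.29% of all genes). The call at 12 h was lost without non-treated library 1 of 1.5 h (LFC 0.44, adjusted p = 0.0646). None of the 10 passed at 3 h (0.122% of all genes) or 6 h (0.486%), with 1 gene each at an unadjusted p under 0.05 and 0 called by DESeq2. For SLC1A5, the non-treated libraries of 12 and 24 h were all above those of 1.5 h, with LFCs of 0.41 (SE 0.15, adjusted p = 0.105) and 0.36 (SE 0.15, adjusted p = 0.172) that did not pass, although that of 12 h did without non-treated library 3 of 12 h (LFC 0.53, adjusted p = 0.0439). The SLC1A5 change at 12 h also passed without the filter (adjusted p = 0.00441) and with only the libraries compared (0.0119). That at 24 h passed without the filter (0.0311).

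Summed over the 10 genes, the level was between 899 and 1059 CPM in non-treated groups. Under mercury it was 1084 ± 3.39, 1340 ± 25.5, 2084 ± 112, 2546 ± 176, and 2749 ± 50.03 CPM over the 5 time points. Arsenic stayed at 995 ± 78.9 and 938 ± 32.0 CPM at 1.5 and 3 h and reached 1368 ± 85.5, 2032 ± 73.8, and 2583 ± 127 CPM at 6, 12, and 24 h. Cadmium gave 942 ± 33.1, 1027 ± 65.9, 1382 ± 45.3, 1635 ± 64.0, and 1250 ± 50.6 CPM over the 5 times, and was the only metal under which the sum was lower at 24 h than at 12 h.

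Across the means of the 20 groups on the log2 CPM scale, the 45 pairs of transporters correlated with Pearson r between 0.40 (SLC38A2 and SLC43A1) and 0.96 (SLC3A2 and SLC38A1), with a median of 0.82. These values describe the groups, which share non-treated cells and time points, and carry no test. By the same measure over 7244 genes, those with 50 or more counts on average, the genes outside the 10 whose course was most like that of SLC7A11 were GPT2 (r = 0.96), an alanine aminotransferase, and GCLM (0.96), the modifier subunit of the enzyme that starts glutathione synthesis. For SLC3A2 they were ASPH (0.98) and TRIB3 (0.97), a pseudokinase induced by ATF4, and for SLC7A5 TRIB3 (0.96) and TXNRD1 (0.96), thioredoxin reductase. For SLC1A4 they were CARS1 (0.99), the cysteinyl-tRNA synthetase, and GPT2 (0.97), for SLC6A9 SEL1L3 (0.96) and PHGDH (0.96), the first enzyme of serine synthesis, and for SLC1A5 ETV5 (0.98) and PGD (0.97), an enzyme of the pentose phosphate pathway. Those of SLC38A1 were GFPT1 (0.97) and RSL24D1 (0.97), those of SLC38A2 MAFG (0.90) and FOXC1 (0.89), those of SLC7A1 ASAP1 (0.91) and STC2 (0.90), and those of SLC43A1 PRDX6 (0.82) and FAM53C (0.81).

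For comparison, 44 other amino acid transporter genes were listed, of which 15 had enough counts to be tested. Over the 5 time points, 3 of their 75 tests passed under arsenic, 1 under cadmium, and 9 under mercury, all of them increases, and they came from 5 genes. These are 4%, 1.33%, and 12% of the tests, close to the 3.9%, 2.52%, and 10.7% over all genes. Those with an LFC above 1 were SLC38A9, a lysosomal arginine sensor, at 1.83 (SE 0.42, adjusted p = 0.000506) under mercury at 24 h, the taurine transporter SLC6A6 at 1.81 (SE 0.25, adjusted p = 6.17e-08) under mercury at 12 h, and SLC38A6 at 1.52 (SE 0.25, adjusted p = 2.21e-06) under mercury at 24 h. SLC38A9 was at 12.9 ± 1.25 CPM under mercury and 3.60 ± 1.38 CPM in non-treated cells at 24 h, and SLC6A6 was at 30.7 ± 2.79 CPM under mercury and 8.70 ± 2.73 CPM in non-treated cells at 12 h. The median LFC of the 15 under mercury at 24 h was 0.29, against 1.57 for the 10, and under arsenic 0.39, against 1.40. The 10 and this list were chosen with earlier results of these data known, so the higher values of the 10 are no independent result. Most of the 15 also had lower levels than most of the 10, so fewer of their changes could pass.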

How the data were processed

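RNA was sequenced from the 3′ end with the QuantSeq FWD kit in 60 libraries of 1321N1 cells. The authors aligned single-end reads to GRCh38 with STAR 2.7.9a and counted reads on exons of the basic GENCODE annotation, and the deposited table holds whole-number counts per gene without normalization, for 62703 genes and 92 spike-in sequences with 0 counts. Reads that overlap more than 1 gene are left out by such counting.

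All libraries were fitted in 1 model with 1 coefficient per group of metal and time in edgeR 4.0.16 (R 4.3.3), by glmQLFit and glmQLFTest with Benjamini-Hochberg adjustment over all tested genes within each comparison. The filter filterByExpr (minimum count 10, minimum total 15) kept 12341 genes. TMM factors ranged from 0.934 to 1.03, and the biological coefficient of variation was 0.120. Levels are CPM of the TMM-normalized library size, and the SE of an LFC is its size divided by the square root of F. At depths of 2215276 to 4404609 counts, genes with few counts have wide errors.

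The labels gave the groups, and they tie the replicate numbers to no batch. Replicate libraries correlated at 0.958 to 0.977, and 2 libraries of a group differed by a chi-square of at least 2.02 per degree of freedom, so none was a copy. On counts simulated for arsenic against non-treated at 24 h (12081 genes), 90 of 100 genes changed 2-fold and 100 of 100 changed 4-fold were called, along with 5 that were unchanged, and a simulated comparison with no change gave 0 calls. The changed genes were drawn only from genes above a minimum mean count, which SLC43A1 (median 23.5 counts) did not reach. The recovery therefore does not cover genes with so few counts.

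The 10 genes and the lists were chosen with earlier results of these data known. Named besides the 10 were, of the other amino acid transporters, up to 5 with the largest LFC beyond 1, and for each of the 10 the 2 genes with the highest correlation over the 20 groups. The cadmium effect at 12 h against 6 h was added after values were seen. The alternatives were DESeq2 1.42.0, RLE size factors, no filter, a stricter filter (at least 30 counts in 3 libraries), a replicate block, only the libraries compared, and leaving out each library. Promoter sequences came from RefSeq (GRCh38.p14) and gene positions from a GENCODE annotation of GRCh38. The genetic screens of the study and the protein sequences were not used here.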

Additional observations from a re-analysis of the deposited data

Results flagged for a closer look

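The effect of cadmium differed between 12 and 24 h for 2 of the 10 transporters by a test of the difference itself. For SLC7A11 the LFC against non-treated cells changed by -0.81 (SE 0.16, adjusted p = 0.0044), from 0.99 to 0.18, and for SLC38A1 by -0.66 (SE 0.16, adjusted p = 0.0354), from 0.85 to 0.18. The change of SLC7A11 passed under all alternatives run. That of SLC38A1 was lost with the replicate block (adjusted p = 0.0562), with only the libraries compared (0.326), and on leaving out any of 7 of the 12 libraries (0.0825 to 0.203). Both rest on 3 libraries in each of 4 groups.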

How the results depend on the processing

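Of the 380 values of single transporters, 67 changed sign under 1 or more alternatives, all between fits in which neither value passed and from a size of at most 0.25 (log2), and no value that passed in either fit did so. The counts for arsenic, cadmium, and mercury against non-treated cells were 21 to 24, 10 to 13, and 33 to 36 of 50 over all alternatives, against 23, 12, and 35. The effect of arsenic at 24 h against 12 h passed for 1 transporter with DESeq2, without the filter, and with the stricter filter, instead of 0, and for 0 to 1 without single libraries. The transporter was SLC3A2 with DESeq2 (adjusted p = 0.0390) and the stricter filter (0.0456), but SLC1A5 without the filter (0.0361). The effect of cadmium at 24 h against 12 h passed for 1 instead of 2 with the replicate block and with only the libraries compared, both times without SLC38A1, and for 1 to 2 without single libraries. In non-treated cells over time, 4 tests passed without the filter and 3 with only the libraries compared, instead of 2, and 1 to 3 without single libraries. The causes were not tested.

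Libraries that share a replicate number did not deviate together from their group means (median correlation -0.008, 0 of 45 over 0.1), and the numbers were not used for pairing. With the replicate block, 333 of 340 values kept their side of the threshold and 7 lost the call, and 21, 12, and 34 tests passed under arsenic, cadmium, and mercury. For non-treated cells over time the block could not be fitted, since the blocks lie within time points. Leaving out each library gave 2402 of 2520 values on the same side of the threshold, 106 that lost the call, and 12 that gained it. Without the filter, 11 of 380 values lost the call and 7 gained it. With only the libraries compared, 14 lost it and 8 gained it. With RLE size factors, 1 lost it and 1 gained it. DESeq2 lost 0 calls and gained 6, and the stricter filter lost 0 and gained 5. Depth limits mainly SLC6A9 and SLC43A1, with as few as 12 and 10 counts in a library.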
